A study of Rattus norvegicus with 22 samples.

Results

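The enzymes described here are the xenobiotic-metabolising cytochromes P450 of the Cyp2 and Cyp3a families in rat liver, together with Por, the reductase that feeds them electrons. Of 9 genes sought by name among the probes of a rat expression array, 8 were found (Cyp2a1, Cyp2b2, Cyp2b3, Cyp2c7, Cyp2e1, Cyp3a9, Cyp3a18 and Por), on 12 probes out of 30367 non-control probes and among 26276 gene names. Cyp2b1 is not a gene name on this array, but 1 of the 2 Cyp2b2 probes is also listed for the Cyp2b1 transcript and cannot separate these genes. The samples were livers of male Sprague-Dawley rats, 8 weeks old at the start, fed for 3 or 14 months. All ate a semi-synthetic diet, either the control diet with lard (groups CD 3 and CD 14) or the BASE-diet (groups BD 3 and BD 14). In the BASE-diet salmon fat at 6% stood in for part of the lard, and rapeseed oil was raised. Linden flower extract at 8%, pumpkin puree at 8% and 2 probiotic strains (a Lactobacillus acidophilus and a Bifidobacterium) at 1% were added. These percentages follow the methods text, while the table of diets lists less of the probiotic. The animals were housed in single cages. There were 5 rats in each 3-month group and 6 in each 14-month group, with 1 array for each rat. By the sample labels the rat's RNA carried Cy5 on every array. The same reference RNA, from livers of healthy rats 10 weeks old, carried Cy3. A log2 ratio above 0 therefore means more signal from the study rat than from the reference.

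Cytochromes P450 of these families sit in the endoplasmic reticulum of the hepatocyte, oxidise drugs, plant compounds and steroids, and each needs electrons that Por passes on from NADPH. Their genes respond to foreign compounds through the nuclear receptors CAR (Nr1i3) and PXR (Nr1i2), and the Cyp2b genes are the textbook targets of phenobarbital acting through CAR. Many P450 genes of rat liver also differ between the sexes and with age, under the pattern of growth hormone release.

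The probes on which the results turn are printed first, since the Cyp2b2 results differ between 2 probes and the probe sequence decides which transcripts can bind. The array's annotation places both Cyp2b2 probes on rat chromosome 1 (build rn4, plus strand), in exons of the same transcript. The probe that is also listed for Cyp2b1 (A_64_P006590, at chr1:81358908-81358967, transcript bases 1377 to 1436) is shown with the Cyp2c7 probe most like it (A_64_P000452, at chr7_random:579405-579464, minus strand), and capitals mark the bases that are identical at the best ungapped alignment, 33 of 58 overlapping bases or 56.9%.
Cyp2b2/Cyp2b1, A_64_P006590: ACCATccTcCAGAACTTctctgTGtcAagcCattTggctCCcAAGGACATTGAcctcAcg
Cyp2c7, A_64_P000452: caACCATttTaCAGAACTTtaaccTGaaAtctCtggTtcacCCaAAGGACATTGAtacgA
No other pair of the 12 probes shared more than 25 aligned bases. The remaining Cyp2b2 probe (A_44_P311324, at chr1:81354719-81354778, transcript bases 988 to 1047) is listed for Cyp2b2 alone, although its match to the closely similar Cyp2b1 transcript was not tested, and it is the brighter of the pair and therefore the gene's main probe. The Cyp2a1 probe lies at chr1:82019991-82020050, and the Por probe spans an exon junction at chr12:22079298-22079446 on the minus strand. Cyp2a1 and Por are shown because each had an unadjusted p under 0.05 in limma in 1 diet contrast, although the groups overlapped.
Cyp2b2, A_44_P311324: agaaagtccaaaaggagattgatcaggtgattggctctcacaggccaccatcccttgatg
Cyp2a1, A_64_P165713: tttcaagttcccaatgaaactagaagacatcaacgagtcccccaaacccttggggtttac
Por, A_44_P402375: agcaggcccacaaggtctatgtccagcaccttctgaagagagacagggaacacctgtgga

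All 12 probes were well above background and unsaturated on all 22 arrays, so none of the values below is limited by detection. Array quality was uneven: 52.4% to 93.6% of spots were well above background in Cy5 over the arrays, and the lowest share belonged to CD 3 replicate 4, which also gave the lowest ratio of its group for Cyp2a1, Cyp2e1, Cyp3a18 and both Cyp2b2 probes. The arrays lay on 5 slides (A to E). All 6 BD 14 arrays were on slide E, and only slide A (1 CD 3 and 2 BD 3 arrays), slide E (2 CD 14 and 6 BD 14 arrays) and slide C (1 CD 3 and 1 CD 14 array) held groups of 1 contrast, so diet and slide overlap in part. All 6 hepatocyte markers were well above background on all arrays, and of the 6 bile duct and 6 pancreas markers none was. Fewer cells of a type and less RNA per cell cannot be told apart in such samples.

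No enzyme passed the threshold of an adjusted p of 0.05 in limma in any contrast, and neither did any gene of the array in the 4 pairwise contrasts (0 of 17063 genes, 0.0%, in each). At 3 months the mean ratio of 7 of 8 main probes was higher in BD 3 than in CD 3, with a median log2 difference of 0.48 beside 0.03 over all genes tested, of which 53.2% were above 0. Without CD 3 replicate 4, the array with the fewest spots above background, the median was 0.20 with 7 of 8 still higher, and without CD 3 replicate 2 it was 0.78. The slide block gave a median of 0.10 with 4 of 8 higher, as Cyp2a1, Cyp2e1 and Por turned below 0. At 14 months 6 of 8 were higher in BD 14 than in CD 14, with a median of 0.16 beside 0.03, and 54.4% of all genes were above 0; Cyp2c7 and Cyp3a18, both near 0, turned below it when each array was centred on its median, which left 4 of 8 higher. That median ran from 0.10 (without BD 14 replicate 5 or CD 14 replicate 4) to 0.32 (without BD 14 replicate 6) in the fits without 1 array, and was 0.03 in the rat channel alone. An unadjusted p under 0.05 was reached by 1 of 8 main probes at 3 months (Cyp2a1) and by 1 of 8 at 14 months (Por), against 4.88% and 3.23% of all genes in that direction and 6.94% and 4.1% in either, so that 1 of 8 was close to the share of all genes.

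**Figure D1:**
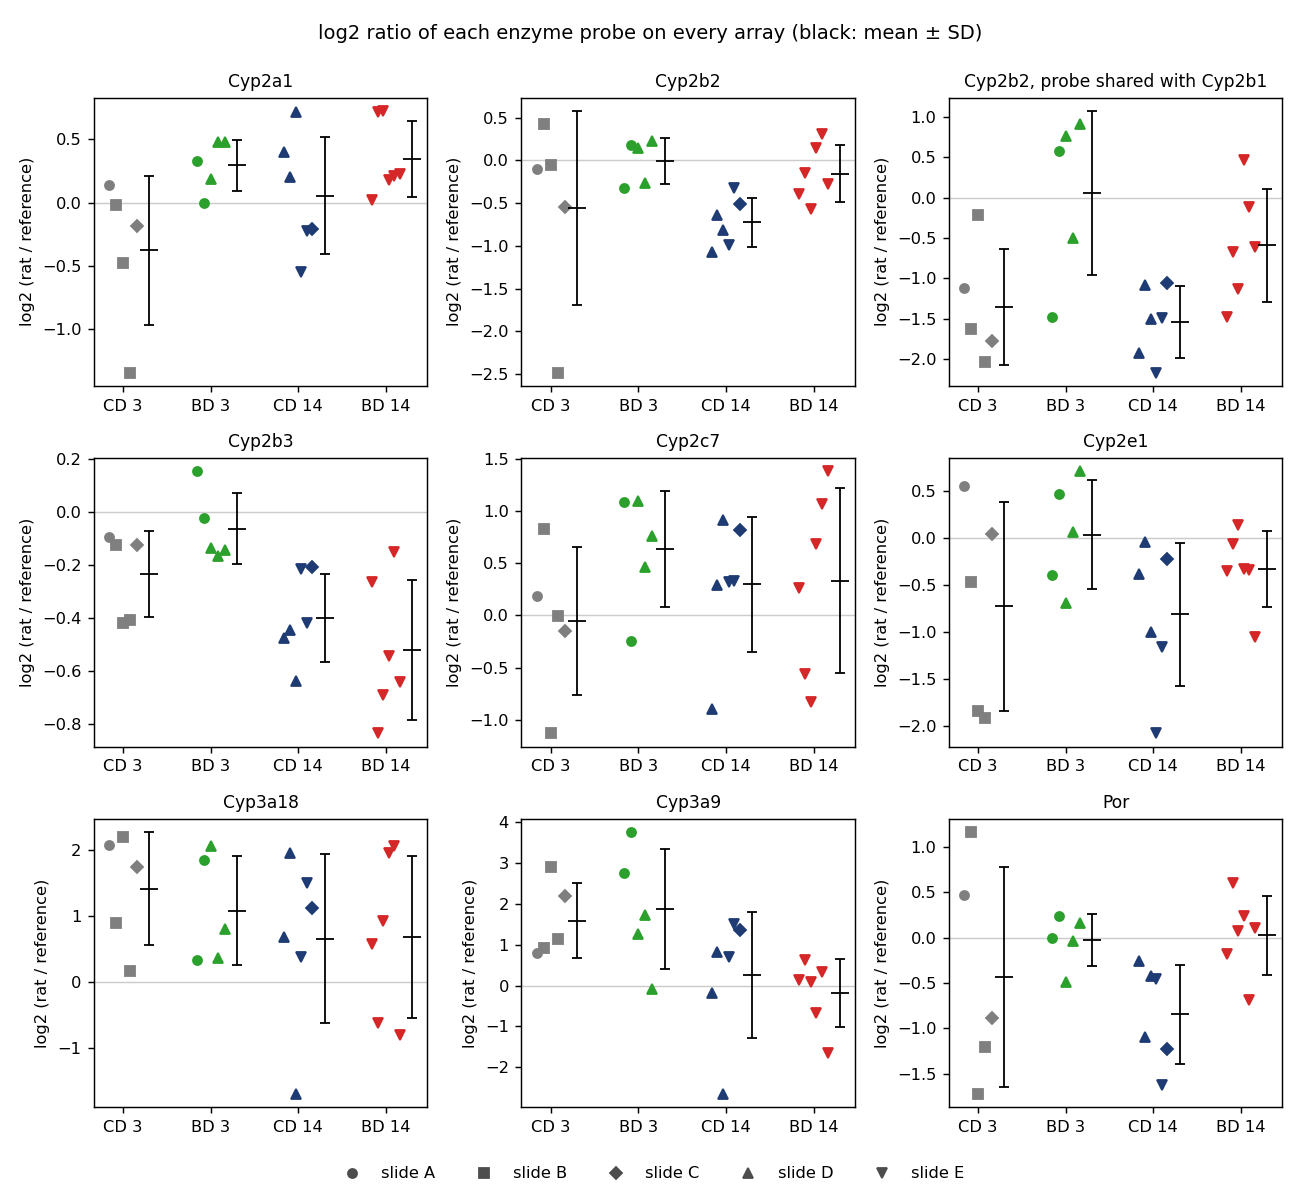
Log2 ratio of the rat over the reference channel (y axis) for the main probe of each enzyme and for the Cyp2b2 probe shared with Cyp2b1, on every array, by group (x axis); each point is 1 rat, its shape gives the slide, and the black mark is the mean with its SD (n = 5 at 3 months, n = 6 at 14 months). In the panel of the shared Cyp2b2 probe 4 of 5 BD 3 arrays lie at -0.50 or higher while 4 of 5 CD 3 arrays lie at -1.12 or lower, and the Cyp3a9 panel has the widest range, from -2.65 to 3.77.

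The probe shared by Cyp2b2 and Cyp2b1, the classical phenobarbital-inducible enzymes, had the largest log2 difference by diet of the 12 probes at both times. In CD 3 its log2 ratio was -1.12, -1.62, -0.22, -2.03 and -1.78 in replicates 1 to 5. In BD 3 it was -1.47, 0.58, 0.76, -0.50 and 0.92. The groups overlapped through BD 3 replicate 1, which lay among the control rats, and CD 3 replicate 3, which lay above them. The difference was 1.41 (SE 0.44, 95% confidence interval 0.50 to 2.32), a 2.66-fold higher ratio on the BASE-diet, with an unadjusted p of 0.00417 and an adjusted p of 0.435 in limma. Every fit that left out 1 of these 10 arrays kept the unadjusted p under 0.05, with differences of 1.19 to 1.79. At 14 months CD 14 ranged from -2.17 to -1.06 (median -1.50) and BD 14 from -1.48 to 0.47 (median -0.64), so that 4 of 6 BASE-diet rats lay above all control rats. The difference was 0.95 (SE 0.40, interval 0.12 to 1.78), 1.93-fold, with an unadjusted p of 0.0276 and an adjusted p of 0.952 in limma. It missed an unadjusted p of 0.05 without CD 14 replicate 1 (0.87), CD 14 replicate 4 (0.82), BD 14 replicate 4 (0.74) or BD 14 replicate 5 (0.85).

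With the rat channel taken alone and quantile-normalised between arrays, this probe was the only enzyme probe to pass the threshold in any of the fits made, at 3 months, with a log2 difference of 1.54 (SE 0.35) and an adjusted p of 0.0325 in limma, where 221 of 19434 probes (1.14%) passed. In the rat channel with each array centred on its median probe, CD 3 ran from 0.28 to 1.47 and BD 3 from 1.88 to 3.22. The groups did not overlap, which held for 2.47% of all genes in this direction. At 14 months the rat channel gave 0.47 (SE 0.32, adjusted p = 0.849) after quantile normalisation, where 0.0% of probes passed. The block of slides left the differences at 1.37 (SE 0.74) at 3 months and 1.24 (SE 0.61) at 14 months, neither at an unadjusted p under 0.05, and within slide A alone, with 1 control array, the difference was 0.67 (SE 0.90).

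The main Cyp2b2 probe, the one listed for Cyp2b2 alone, had smaller differences in the same direction. CD 3 had ratios of -0.11, 0.42, -0.06, -2.48 and -0.55, and BD 3 had -0.33, 0.18, 0.15, -0.27 and 0.23. The BASE-diet rats lay within the range of the control rats, and CD 3 replicate 4 lay far below all others. The difference of 0.55 (SE 0.36, adjusted p = 0.819) therefore became 0.06 without that array. At 14 months the control rats lay between -1.07 and -0.32 (median -0.73) and the BASE-diet rats between -0.56 and 0.31 (median -0.21), a difference of 0.57 (SE 0.33, adjusted p = 0.952). Without CD 3 replicate 4, which enters this contrast only through the shared spread, its SE was 0.19 and its unadjusted p under 0.05. In the rat channel alone the 3-month difference was 0.79 (SE 0.30), with an unadjusted p under 0.05 as for 15.2% of all probes. Over the 22 arrays the ratios of both Cyp2b2 probes had a correlation of 0.66. Cyp2b3, the family member that phenobarbital does not induce, differed by diet by 0.17 (SE 0.16) at 3 months and -0.12 (SE 0.14) at 14 months on its main probe (chr1:81185388-81185447) and by 0.43 (SE 0.22) and 0.11 (SE 0.20) on its other probe (chr1:81185183-81185242). None of these passed an unadjusted p of 0.05, and the 14-month direction was not the same on both probes. The 3-month value of the other probe fell to 0.23 without CD 3 replicate 4, and its unadjusted p was under 0.05 in 4 of the 10 fits without 1 array of these groups.

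Cyp2a1, a testosterone hydroxylase, had ratios of 0.14, -0.02, -0.48, -1.35 and -0.18 in CD 3. In BD 3 the ratios of replicates 1 and 3 to 5 were 0.33, 0.18, 0.48 and 0.48, and replicate 2 was close to 0. CD 3 replicate 1 lay within the range of the BASE-diet rats and the other 4 control rats below it, replicate 4 farthest. The difference was 0.67 (SE 0.26, interval 0.12 to 1.22), 1.59-fold, with an unadjusted p of 0.0193 and an adjusted p of 0.586 in limma. Leaving out CD 3 replicate 4 gave 0.43 (SE 0.23) and lost that p, while the 9 other fits without 1 array of these groups kept p under 0.05. In the fit that holds slides apart the difference was -0.01 (SE 0.35), and within slide A alone it was 0.03. At 14 months the control rats ranged from -0.55 to 0.71 and the BASE-diet rats from 0.02 to 0.73, and the difference of 0.29 (SE 0.24, adjusted p = 0.952) was 0.73 (SE 0.30) on slide E alone.

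Cyp2e1, the ethanol-inducible enzyme that also oxidises paracetamol, was spread more widely among the control rats than among the BASE-diet rats. CD 3 ran from -1.92 to 0.56 (median -0.46) and BD 3 from -0.69 to 0.72 (median 0.07), with a difference of 0.76 (SE 0.45, adjusted p = 0.790). Leaving out CD 3 replicate 4 gave 0.46 and leaving out CD 3 replicate 1 gave 1.08, where alone among the fits without 1 array of these groups the unadjusted p was under 0.05. CD 14 ran from -2.08 to -0.04 (median -0.68) and BD 14 from -1.05 to 0.14 (median -0.33), with a difference of 0.48 (SE 0.41, adjusted p = 0.952), which was 0.23 without CD 14 replicate 4. The groups overlapped at both times. With the slide as a block the differences became -0.24 (adjusted p = 0.901) at 3 months and 1.29 (SE 0.44, adjusted p = 0.439) at 14 months in limma.

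Cyp2c7, a retinoid-oxidising enzyme, was measured by 3 probes on chr7_random, and their ratios had correlations of 0.79 to 0.91 over the arrays. On the main probe (chr7_random:579172-579231) CD 3 had ratios between -1.13 and 0.83 (median -0.01) and BD 3 between -0.25 and 1.09 (median 0.77). The 3 probes gave differences at 3 months of 0.69 (SE 0.43), 0.97 (SE 0.45) and 0.85 (SE 0.44), and adjusted p of 0.806, 0.684 and 0.738. Of the 3 only the second had an unadjusted p under 0.05, and it missed that in 6 of the 10 fits without 1 array of these groups. In such fits the main probe ran from 0.42 (without CD 3 replicate 3) to 0.91 (without BD 3 replicate 2). In the rat channel alone, quantile-normalised, the 3 differences were 0.01, 0.32 and 0.56. At 14 months the main probe ranged from -0.90 to 0.92 in CD 14 and from -0.83 to 1.38 in BD 14, and the difference was 0.04 (SE 0.39).

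Neither Cyp3a enzyme separated by diet. Cyp3a18 (chr12:9087179-9087238) had ratios of 0.17 to 2.20 (median 1.74) in CD 3 and 0.33 to 2.06 (median 0.80) in BD 3, a difference of -0.33 (interval -1.67 to 1.00). In CD 14 and BD 14 it covered -1.70 to 1.95 and -0.81 to 2.07, a difference of 0.02 (interval -1.20 to 1.24). The probe of Cyp3a9, an enzyme with higher levels in female than in male rat liver, lies at chr12:17204458-17204517. Its diet difference was 0.29 (interval -1.21 to 1.80) at 3 months and -0.44 (interval -1.82 to 0.93) at 14 months, where leaving out CD 14 replicate 3 gave -1.03 and leaving out BD 14 replicate 6 gave -0.15. With intervals of this width the data do not show that the diets act alike on these genes. With the slide as a block Cyp3a9 stood at 1.86 (SE 0.95) at 3 months and -1.29 (SE 0.79) at 14 months.

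Por, the electron donor of all these enzymes, had an unadjusted p under 0.05 by diet at 14 months and not at 3, but the interaction test showed no difference between the times at that threshold. CD 14 had ratios of -0.26, -1.09, -0.43, -0.45, -1.62 and -1.23, and BD 14 had -0.18, 0.60, 0.07, 0.24, -0.69 and 0.11. Of the BASE-diet rats 5 of 6 lay above every control rat, and replicate 5 lay within their range. The difference was 0.87 (SE 0.38, interval 0.08 to 1.66), 1.83-fold, with an unadjusted p of 0.0323 and an adjusted p of 0.952 in limma. Leaving out 1 array of these groups gave differences of 0.71 to 1.01, and the unadjusted p missed 0.05 without CD 14 replicate 2, 5 or 6 or BD 14 replicate 2 or 4. The rat channel alone gave 0.38 (SE 0.36), and slide E alone 1.06 (SE 0.56), neither at an unadjusted p under 0.05. At 3 months CD 3 ranged from -1.72 to 1.17, the widest of the groups, and BD 3 from -0.49 to 0.24. In the centred rat channel the mean of Por was 0.45 in CD 3 and 1.19 in BD 3, a wider gap than that between 0.54 in CD 14 and 0.98 in BD 14. The difference in ratio of 0.41 (SE 0.42, adjusted p = 0.895) was 0.08 without CD 3 replicate 3, and the slide block gave -0.18.

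**Figure D2:**
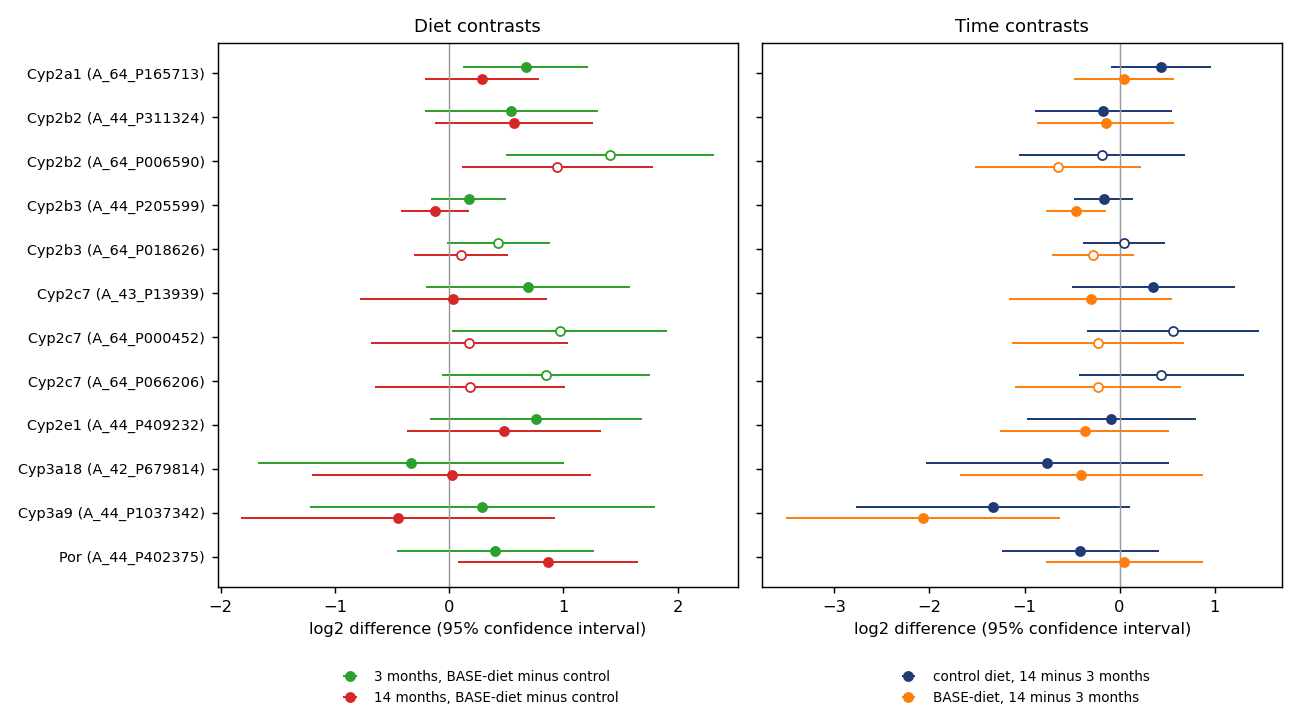
Log2 differences of all 12 probes with 95% confidence intervals (x axis) for the diet contrasts (left) and the time contrasts (right), with a row for each probe (y axis); filled points are main probes and open points the other probes of a gene. In the diet panel the shared Cyp2b2 probe (A_64_P006590) stands farthest from 0, at 1.41 and 0.95, and in the time panel Cyp3a9 does, at -2.07 on the BASE-diet.

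The time contrasts compare rats fed for 14 and for 3 months on the same diet, which are also of different age. On the BASE-diet 6 of 8 main probes were lower at 14 months, with a median log2 difference of -0.33 beside 0.06 over all genes, of which 57.3% were above 0. Without 1 array of these groups the median ran from -0.41 (BD 14 replicate 5) to -0.14 (BD 14 replicate 2). An unadjusted p under 0.05 in that direction was reached by 2 of 8, Cyp3a9 and Cyp2b3, against 2.89% of all genes in that direction and 7.24% in either. On the control diet 6 of 8 were lower too, with a median of -0.17 beside 0.03 and 53.3% of all genes above 0, and none reached an unadjusted p of 0.05, as 3.3% of genes did in that direction and 10.1% in either. Leaving out CD 3 replicate 4 moved that median to -0.49, and leaving out CD 3 replicate 2 moved it to -0.018. BD 14 and BD 3 share no slide, so diet duration, age and slide cannot be told apart in the BASE-diet rats except through the slides that other groups share.

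For Cyp3a9 BD 3 had ratios of 2.76, 3.77, 1.26, 1.74 and -0.09, and BD 14 had 0.14, 0.62, 0.10, -0.66, 0.32 and -1.64. Of the 3-month rats 4 of 5 lay above every 14-month rat. The difference was -2.07 (SE 0.69, interval -3.51 to -0.63), which leaves 0.238 of the 3-month ratio, with an unadjusted p of 0.00697 and an adjusted p of 0.465 in limma. In the fits without 1 array of these groups p stayed under 0.05 (differences of -2.57 to -1.60), and with the slide as a block the difference was -3.20 (SE 1.07). In the control rats CD 3 ranged from 0.81 to 2.92 and CD 14 from -2.65 to 1.51, a difference of -1.34 (SE 0.69, adjusted p = 0.533) that became -0.04 with the slide as a block and -0.75 without CD 14 replicate 3, and 2 of the 11 fits without 1 array of these groups had an unadjusted p under 0.05. In the centred rat channel alone Cyp3a9 did not overlap between BD 3 (1.83 to 2.74) and BD 14 (-0.36 to 1.21), which held for 9.85% of all genes in that direction. Nor did the main Cyp2b2 probe in that channel (2.74 to 2.83 in BD 3, 1.67 to 2.45 in BD 14). The other Cyp2b3 probe, A_64_P018626, did not overlap either (5.45 to 5.97 in BD 3, 4.87 to 5.43 in BD 14), which makes 3 of the 12 probes. The share of 9.85% counts each gene by its main probe, which A_64_P018626 is not, and the main Cyp2b3 probe overlapped.

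Cyp2b3 was lower by less and with less spread. Its main probe ranged from -0.17 to 0.15 in BD 3 and from -0.84 to -0.15 in BD 14, a difference of -0.46 (SE 0.15, interval -0.77 to -0.15) with an unadjusted p of 0.00603 and an adjusted p of 0.447 in limma. On the control diet the difference was -0.17 (SE 0.15). The other Cyp2b3 probe gave -0.28 (SE 0.21, adjusted p = 0.774) on the BASE-diet. The main probes of the remaining enzymes differed between 3 and 14 months by -0.76 (Cyp3a18) to 0.43 (Cyp2a1) on the control diet and by -0.40 (Cyp3a18) to 0.05 (Por) on the BASE-diet, none at an unadjusted p under 0.05. Both ends on the control diet moved with single arrays: Cyp3a18 ran from -1.07 (without CD 3 replicate 4) to -0.29 (without CD 14 replicate 3), and Cyp2a1 from 0.19 (without CD 3 replicate 4) to 0.56 (without CD 3 replicate 1), with an unadjusted p under 0.05 in 2 of 11 fits. The main Cyp2b2 probe had such a p on the control diet without CD 3 replicate 4, at -0.65. The interaction of diet and time, which asks whether the diet difference was another at 14 than at 3 months, had an unadjusted p of at least 0.185 for all 12 probes, while 4.56% of genes fell under 0.05. Over all 4 groups the F test gave unadjusted p under 0.05 for 3 of 8 main probes (Cyp3a9, Cyp2b3 and Cyp2a1) against 10.2% of genes, and an adjusted p under 0.05 for none of them against 4 genes (0.0234%). The shared Cyp2b2 probe had an unadjusted F test p of 0.00413 and an adjusted p of 0.248 in limma.

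The reference channel was itself not constant, although every array is stated to carry the same reference RNA. This was not particular to these enzymes. Over all genes tested the median SD of the centred log2 signal was 0.48 in Cy3 and 0.56 in Cy5. After centring each array on its median probe, the Cy3 signal of Cyp3a9 spanned 18.1-fold over the 22 arrays and its SD on the log2 scale was 1.05, larger than in 91.2% of genes and about equal to the SD of 1.08 in the rat channel. CD 14 replicate 3, which had the lowest Cyp3a9 ratio, had a processed Cy5 signal of 372 and a Cy3 signal of 2337. For the shared Cyp2b2 probe the Cy3 signal spanned 4.57-fold (SD 0.61) and the Cy5 signal 7.79-fold (SD 0.81). Cyp2a1 had a steady reference, with a Cy3 SD of 0.23 that was above that of 6.41% of genes, and Por had one of 0.43, beside a median of 0.48 over all genes tested. Ratios of Cyp3a9, Cyp3a18 and the shared Cyp2b2 probe had the widest spread of the 12 probes (SD 1.45, 1.06 and 0.93 over the 22 arrays, median of all genes 0.53), and the main Cyp2b3 probe the narrowest (SD 0.25), where rat and reference signal moved together between arrays with a correlation of 0.70. The part of the reference in the ratios was not tested.

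**Figure D3:**
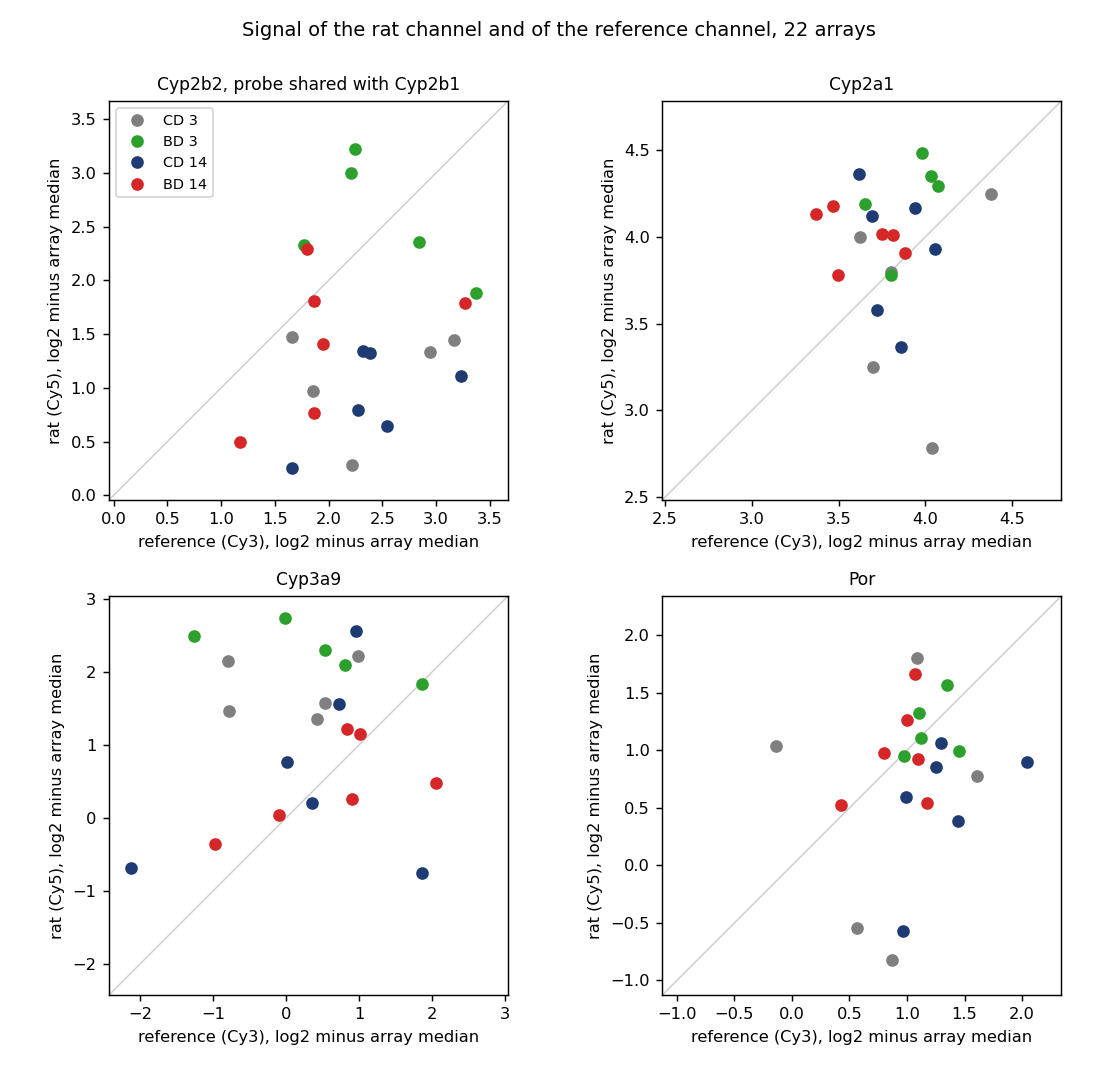
Log2 signal of the rat channel (Cy5, y axis) against that of the reference channel (Cy3, x axis), each minus the array's median over probes detected on all arrays, for 4 probes; each point is 1 array, coloured by group, and the grey line marks equal values. The shared Cyp2b2 probe has all 5 BD 3 arrays above all 5 CD 3 arrays in Cy5 (from 1.88 against up to 1.47), and the Cyp3a9 reference signal runs from -2.12 to 2.05.

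How the diet differences shift with the processing is shown for 6 settings. The shared Cyp2b2 probe was above 0 in all of them at both times, and so was the main Cyp2b2 probe, whereas Cyp2a1, Cyp2e1 and Por changed sign at 3 months with the slide as a block.

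**Figure D4:**
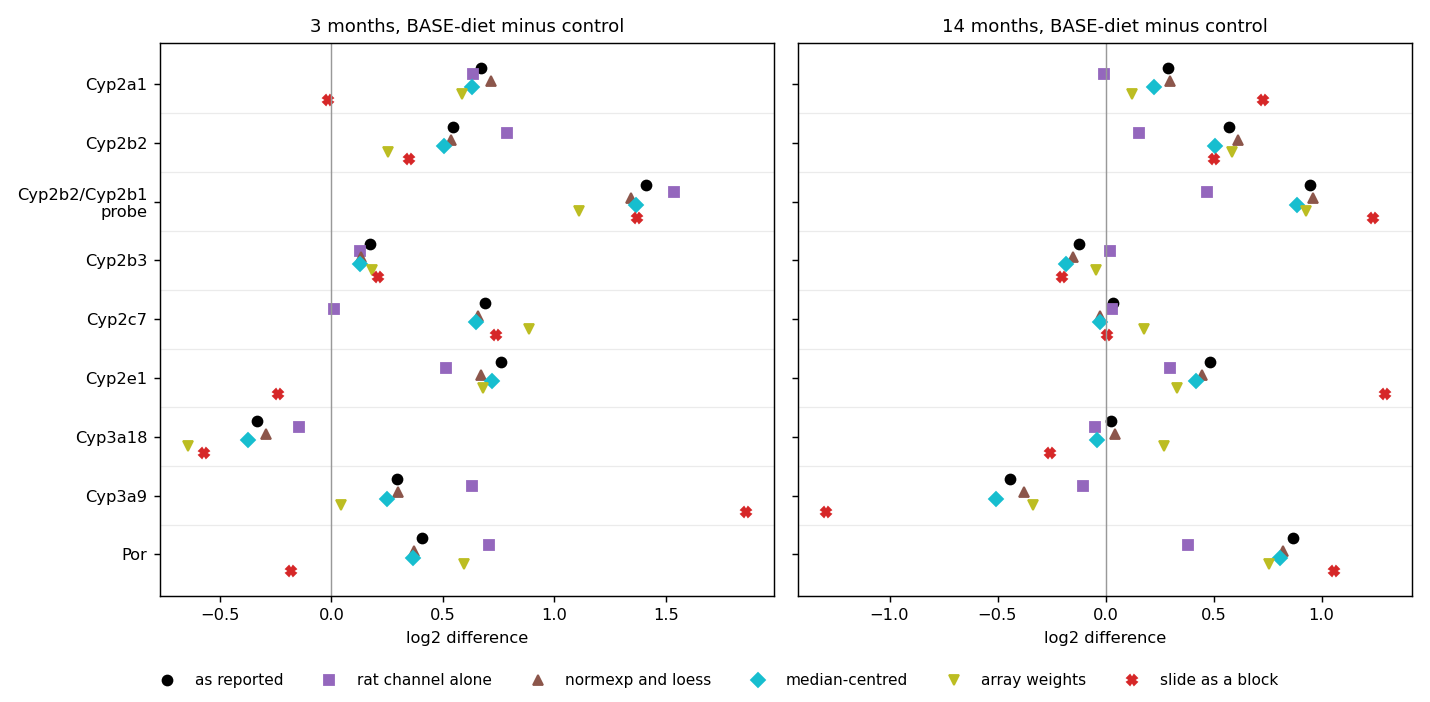
Log2 difference of BASE-diet minus control (x axis) at 3 months (left) and 14 months (right) for the main probe of each enzyme and the shared Cyp2b2 probe (y axis), as reported and under 5 other settings, each with its own symbol. With the slide as a block Cyp2e1 lies at -0.24 and 1.29 and Cyp3a9 at 1.86 and -1.29, farther from the reported values than under the other settings.

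The enzymes were also compared with each other over all arrays. The highest correlations between main probes were those of Cyp2a1 with Cyp2e1 (r = 0.63), Cyp2b3 with Cyp3a9 (r = 0.60) and Cyp3a9 with Cyp3a18 (r = 0.55), and Por was nearest to Cyp2a1 (r = 0.53) and Cyp2e1 (r = 0.51). Cyp2a1 and Cyp3a9 ran opposite, with r = -0.39. These are descriptions over 22 arrays that share slides and 1 reference, and with each group's mean removed the values of Cyp2a1 with Cyp2e1, Cyp2b3 with Cyp3a9 and Cyp2a1 with Cyp3a9 were 0.62, 0.31 and -0.38. Of 16468 other genes, the ratio most like that of Cyp2a1 among named genes was Ppp3ca (r = 0.89), that of Cyp2b2 was Lrrc8d (r = 0.89) before Pigx (r = 0.87), and that of Cyp2b3 was Cyp1a2 (r = 0.76), followed by Sidt2 (r = 0.73) and Nup62 (r = 0.69). Cyp2c7 was closest to Colq (r = 0.95), LOC680955 (r = 0.79) and Cyp2c79 (r = 0.78), and Cyp2e1 to Adhfe1 (r = 0.82). Cyp3a9 was closest to Ucma (r = 0.77), Kcnip1 (r = 0.75) and Amacr (r = 0.75). Cyp3a18 was closest to Acy3 (r = 0.91), Hao2 (r = 0.88) and Enpp2 (r = 0.86), and Por to Sp2 (r = 0.81). The other places in these lists of 3 went to probes listed without a gene symbol.

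The rest of the drug-metabolising pathway was looked at through lists of genes, and no listed gene passed an adjusted p of 0.05 in any contrast. The adjusted p of the genes named from these lists by diet ran from 0.400 to 0.952 in limma. Of the other Cyp1 to Cyp3 enzymes 27 were tested. At 3 months 2 were higher on the BASE-diet at an unadjusted p under 0.05 and none lower, against 4.88% of all genes higher, with a median difference of 0.14 beside 0.03. They were Cyp2a2, the close relative of Cyp2a1 and a male-typical enzyme, at 0.68 (SE 0.30) and Cyp2c6v1 at 0.81 (SE 0.39). At 14 months 1 was higher, Cyp2c22 at 1.08 (SE 0.51), and 1 lower, Cyp1a2 at -0.996 (SE 0.34), against 3.23% of all genes higher and 0.873% lower. Cyp1a2 is the dioxin-inducible enzyme that metabolises caffeine, and its ratio was -1.05 ± 0.65 (SD, n = 6) in CD 14 and -2.05 ± 0.70 (n = 6) in BD 14. Between 3 and 14 months 4 of these 27 enzymes were lower on the control diet and 5 on the BASE-diet at an unadjusted p under 0.05, against 3.3% and 2.89% of all genes in that direction, and none was higher, with medians of -0.28 and -0.30 beside 0.03 and 0.06 over all genes. Named after their values were seen, these were Cyp2d1, Cyp2d5, Cyp2f4 and Cyp2j4 (-0.94 to -0.46) on the control diet, and Cyp1a2, Cyp2d1, Cyp2d5, Cyp2f4 and Cyp2t1 (-1.05 to -0.52) on the BASE-diet.

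Among 22 tested regulators of these P450 genes 1 was higher at 3 months and 2 at 14 months on the BASE-diet at an unadjusted p under 0.05, against 4.88% and 3.23% of all genes, so that the 3-month count was at the share of all genes. These were Foxa3, a liver transcription factor, at 1.82 (SE 0.54), Hnf4a, the nuclear receptor that maintains hepatocyte genes, at 0.77 (SE 0.29), and Nr0b2, the repressor SHP, at 1.05 (SE 0.43). Foxa3 in CD 3 had an SD of 1.72, against 0.48 in BD 3. Ppara, the receptor for fatty acids, stood at 0.99 (SE 0.56) at 3 months. CAR itself (Nr1i3) was chosen after its values were seen. It was -1.18 (SE 0.48) on the control diet and -1.22 (SE 0.48) on the BASE-diet between 3 and 14 months, and by diet it stood at 0.84 (SE 0.50) and 0.80 (SE 0.46). With time 1 regulator was higher and 2 were lower on the control diet, and 1, CAR, was lower on the BASE-diet, at an unadjusted p under 0.05, against 6.83% and 4.35% of all genes higher and 3.3% and 2.89% lower.

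Of 17 tested CAR and PXR targets outside the P450 family 2 were higher at 3 months and 1 at 14 months on the BASE-diet at an unadjusted p under 0.05, and none was lower, against 4.88% and 3.23% of all genes higher, with medians of 0.09 and 0.28 beside 0.03 and 0.03. At 14 months 1 of 17 is close to the share of all genes. The carboxylesterase gene Ces2c was among them at both times, at 1.32 (SE 0.43) and 1.05 (SE 0.39). Its groups did not overlap at 3 months, with -0.57 ± 1.13 (SD, n = 5) in CD 3 and 0.75 ± 0.26 (n = 5) in BD 3, which held for 0.522% of all genes in that direction. The glucuronidating enzyme Ugt2b1 stood at 1.69 (SE 0.81) at 3 months and the epoxide hydrolase Ephx1 at 0.93 (SE 0.52) at 14 months. Between 3 and 14 months 12 of the 17 targets were higher on the control diet (median 0.30 beside 0.03 over all genes) and 11 of 17 on the BASE-diet (median 0.46 beside 0.06). At an unadjusted p under 0.05, 2 were higher and 2 lower on the control diet, against 6.83% and 3.3% of all genes, and 2 higher and 1 lower on the BASE-diet, against 4.35% and 2.89%.

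None of 8 electron donors and membrane partners and none of 12 genes of heme synthesis and breakdown had an unadjusted p under 0.05 in either diet contrast. In lists of this size the shares of all genes, 6.94% and 4.1%, come to less than 1 gene. The smallest in the first list were Cyb5b at 0.85 (SE 0.51) and Hspa5 at 0.41 (SE 0.34) at 3 months, and Cyb5a at 0.34 (SE 0.23) and Tmem97 at -0.32 (SE 0.31) at 14 months. In the second they were Alad, the second enzyme of heme synthesis, at -0.38 (SE 0.20) and Blvrb at 0.28 (SE 0.15) at 3 months, and Blvrb at 0.19 (SE 0.13) at 14 months.

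Zonation genes were listed because Cyp2e1 and Por belong to the hepatocytes near the central vein. Of 11 tested perivenous genes none reached an unadjusted p of 0.05 at 3 months, and 2 did so at 14 months, both lower on the BASE-diet, with a median of -0.16, where 4.1% of all genes were under 0.05 in either direction. They were Cyp1a2 and the glutamate transporter Slc1a2, at -0.98 (SE 0.29). At 3 months the smallest were Lect2 at -0.54 (SE 0.31) and Glul, glutamine synthetase, at 0.81 (SE 0.50). Of 12 periportal genes 1 was higher at 3 months, Sds, serine dehydratase, at 2.75 (SE 1.14), and none at 14 months, where 4.88% and 3.23% of all genes were, so that 1 of 12 is near that share. Pck1, which drives gluconeogenesis, stood at 1.03 (SE 0.58) and 0.93 (SE 0.53), and Otc at 0.51 (SE 0.34) at 14 months. Between BD 14 and BD 3 the perivenous genes were lower in 10 of 11 cases, with a median of -0.56 beside 0.06 over all genes, and 2 of them, Slc1a2 at -1.26 (SE 0.31) and Cyp1a2 at -1.05 (SE 0.36), had an unadjusted p under 0.05, against 2.89% of all genes lower. Between CD 14 and CD 3 it was 9 of 11 with a median of -0.10, and 1, Lect2 at -0.95 (SE 0.29), had such a p, against 3.3%. The periportal genes had 7 of 12 lower on the BASE-diet (median -0.18) and 5 of 12 on the control diet (median 0.23), and 1, the glutaminase gene Gls2, had such a p in both, at -0.60 (SE 0.23) and -0.51 (SE 0.23). The genes given here by time were named after their values were seen. Whether zonation had a part in the lower enzyme values was not tested.

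Markers of other cells moved with some groups. All 7 Kupffer cell and macrophage markers were higher in BD 3 than in CD 3, none at an unadjusted p under 0.05, and their summed Cy5 level (log2, each array centred on its median probe) ranged from 2.40 to 3.79 in CD 3, 3.46 to 4.04 in BD 3, 3.21 to 5.75 in CD 14 and 3.52 to 4.73 in BD 14. Of the 7, 5 had an unadjusted p under 0.05 between CD 14 and CD 3, all higher at 14 months (Cd68, Cd163, Clec4f, Vsig4 and Emr1), against 6.83% of all genes higher. The 4 red cell markers were lower in BD 3 than in CD 3, 2 of them at an unadjusted p under 0.05 (Hbb at -1.19 and Slc4a1 at -0.96) against 2.06% of all genes lower, with sums of 7.53 to 9.52 and 7.05 to 8.70. Of 5 adipocyte markers 2 were tested, and only Cidec was well above background on all arrays. By diet Cidec stood at 1.05 (SE 0.31, adjusted p = 0.400) at 3 months and 1.26 (SE 0.28, adjusted p = 0.397) at 14 months in limma. Whether the values of this single gene come from adipocytes was not tested. Tested markers of other cells were 5 endothelial, 7 stellate cell and fibroblast, 4 bile duct, 2 lymphocyte and 2 pancreas genes. Among them only Reln, at 1.16 at 3 months, had an unadjusted p under 0.05 by diet. Of all genes 6.94% had such a p at 3 months and 4.1% at 14 months, so that this count is near that share. The part of these cells in the enzyme values was not tested.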

How the data were processed

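Liver RNA of 22 rats was measured on two-colour Agilent rat arrays, 1 per rat. The authors extracted the signals with Agilent Feature Extraction (version 10.7.3.1 per the labels, 10.10.1.1 per the file headers), which subtracted background and normalised the dyes, and probe positions follow build rn4. The deposited intensity columns hold processed signal of Cy5 (rat) and Cy3 (reference), and the deposited log10 ratio of Cy5 over Cy3 was turned into a log2 ratio. The dye direction follows the sample labels, which put the rat in Cy5 on every array. The methods text states a common reference, but also places control rats in Cy3 and BASE-diet rats in Cy5 on each array. Under that second wording Cy3 would not hold a common reference, and every log2 ratio here would mean something else. Which wording holds was not tested. The authors selected RNA of high integrity and left out 1 array of each 3-month group. A deposited table of the authors' selected entries was not used.

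Spots flagged as controls or as non-uniform were dropped and the remaining spots of a probe averaged, with no further scaling of the arrays. Testing was limited to probes with a share of at least 0.5 of spots well above the Cy5 background on all arrays of some group (19434 of 30367 probes; 17063 genes by their brightest probe). Means of the 4 groups were fitted with limma 3.58.1 in R 4.3.3 with Benjamini-Hochberg adjustment over all tested probes and a threshold of 0.05, and all p-values given are two-sided and from limma. The script was tested on simulated data. Tables and plots used Python 3.11.15, numpy 2.4.6, pandas 2.3.3, scipy 1.17.1 and matplotlib 3.10.9. The number of arrays limits the precision.

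The enzymes and the gene lists were chosen with earlier results of these data known. Named were every enzyme by its brightest probe with its other probes beside it, the 2 genes of each pathway list with the smallest unadjusted p in each diet contrast, and the 3 genes most correlated with each enzyme. A gene that this rule named in the heme list is not reported here. List genes were matched through the array's names and a RefSeq gene table (GRCr8), which named 18005 probes. Alternatives were a normexp and loess normalisation, median-centring, the rat channel alone (quantile-normalised log2 signal), other probe filters, array weights, slide and replicate blocks, single slides, only the groups compared, the methods' F and Tukey tests, and each array left out in turn.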

Additional observations from a re-analysis of the deposited data

Results flagged for a closer look

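On the main Cyp2c7 probe CD 14 replicate 1 had a log2 ratio of -0.90, far below the other 5 control rats at 14 months, with a gap of 0.656 of the whole range of the group (n = 6). It was the only value past the critical value of Dixon's test for its group size among 48 sets of enzyme probe and group, where chance at about 1 in 20 gives 2.4. CD 3 replicate 4 on the main Cyp2b2 probe had a gap of 0.666 of its range, but in a group of 5, for which the critical value is higher. Without CD 14 replicate 1 the Cyp2c7 difference between BD 14 and CD 14 was -0.20 in place of 0.04.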

How the results depend on the processing

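None of the 8 enzymes' main probes reached an adjusted p of 0.05 in limma in any contrast under any alternative, the methods' tests included. Of 1096 alternative values of the 32 log2 differences, 1048 kept their direction and 48 reversed. Many of the 1096 could not reverse. Leaving out an array of another group, changing the detection filter or fitting only the groups compared leaves a difference of group means as it was. The tally is therefore no measure of stability. The number of main probes with an unadjusted p under 0.05 moved with the setting. Shares of all genes under most of these settings are not given, so the counts are not read as results about the enzymes. At 3 months (1 as reported, beside 6.94% of genes) it was 2 with the rat channel alone (Cyp2a1 and Cyp2b2), beside 15.2% of all probes. It was 0 with the slide as a block, 0 on slide A, 0 by the methods' Tukey test, and 0 to 3 without 1 array. It was 2 (Cyp2a1 and Cyp2e1) without CD 3 replicate 1 and CD 14 replicate 1, which held the most non-uniform spots. That alternative was chosen after seeing the data. At 14 months (1) it was 2 with array weights or with only the groups compared (Cyp2b2 and Por), 2 with the slide as a block or on slide E (Cyp2a1 and Cyp2e1, and no longer Por), 0 with the rat channel alone or the Tukey test, and 0 to 2 without 1 array. Between CD 14 and CD 3 (0) it was 1 with array weights or the rat channel alone and 0 to 1 without 1 array. Between BD 14 and BD 3 (2) it was 1 by the Tukey test. The interaction (0) had 2 with the slide as a block. The F test (3) had 1 with array weights, 1 with the replicate block, and 1 to 4 without 1 array. Changes of the count came with the loss of CD 3 replicate 1, 2 or 4 at 3 months, and of CD 3 replicate 4, CD 14 replicate 2, 5 or 6 or BD 14 replicate 2 or 4 at 14 months.

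Reversed differences at 3 months were Cyp2a1 at -0.0132 with the slide as a block, Cyp2e1 at -0.24 with that block and -0.51 on slide A, Por at -0.18 and -0.36 under the same settings, and Cyp3a9 with -0.18 to 0.79 without 1 array. At 14 months Cyp2a1 (-0.00496) and Cyp2b3 (0.0191) reversed with the rat channel alone, and Cyp2b3 on its other probe (0.11). Cyp2c7 then stood at -0.0277 with median-centring, -0.0252 with normexp and loess, -0.20 without the same 2 arrays, and -0.20 to 0.27 without 1 array. Cyp3a18 stood at -0.0395 with median-centring, -0.0493 with the rat channel alone, -0.26 with the slide as a block or on slide E, and -0.45 to 0.32 without 1 array. Between CD 14 and CD 3 Cyp2a1 (-0.0253) and Cyp2b2 (0.0375) reversed on slide C, Cyp2b2 (0.0108) and Cyp2e1 (0.14) without the 2 arrays, Cyp2b3 on its other probe (0.0493), Cyp2c7 (-0.21) and Por (0.0741) with the rat channel alone, and Cyp2e1 (0.0295) with array weights, while leaving out 1 array gave -0.65 to 0.0745 for Cyp2b2 and -0.39 to 0.23 for Cyp2e1. Between BD 14 and BD 3 Cyp2a1 stood at -0.00833 with median-centring, -0.0153 with array weights, -0.24 with the rat channel alone and -0.0257 to 0.12 without 1 array, Por at -0.00694, -0.25 and -0.0644 to 0.19 with median-centring, the rat channel alone and 1 array left out, and Cyp2e1 at 0.91 with the slide as a block. The causes were not tested.

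The replicate numbers did not pair the samples, which were different rats: over 31 pairs of arrays with the same number the correlations of their deviations ran from -0.29 to 0.35. The replicate block changed no other count than that of the F test (1 main probe in place of 3). Single-slide fits rest on 1 to 2 arrays in the smaller group, slide C holds 1 array of each control group, and the lone arrays are assumed to vary like the others. Groups of 5 and 6 rats with a median residual SD of 0.53 limit what can be detected, and the p-values do not cover the batch of the slide.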
